A study of Nicotiana tabacum with 30 samples.

Results

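Among the transcripts that tobacco leaves held in large amounts before drought, 130 genes were at or below 50% of their starting level after 8 h in both genotypes studied. They were chosen from the measured values by these limits: a mean of at least 100 FPKM (fragments scaled to gene length and to library size) at 0 h in M28 and in K326, a change at 8 h of -1 or lower on the log2(FPKM + 1) scale in both, a change at 1 h above -1 in both, and 8 h minus 4 h below 0.8 in both. Of 35519 gene IDs, 19599 were tested and 978 reached 100 FPKM at 0 h in both genotypes. The 130 genes are 13.3% of those 978, and all 130 passed the filter on low values. Of the 978, 182 fell by at least 1 at 8 h in M28, 172 in K326 and 155 in both. The limit at 1 h took away 25 of the 155, and the limit on 8 h minus 4 h took away 0.

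The data are RNA sequencing of Nicotiana tabacum leaves, in 10 groups of 3 libraries each. M28 is a line that arose from the cultivar K326 by chemical mutagenesis with ethyl methanesulfonate (EMS), and the submitters credit it with stronger drought resistance. It was sampled at 0, 1, 2, 4 and 8 h of drought. K326, its unmutagenised parent, was sampled at the same 5 times. Seedlings of both genotypes were grown in pots in the same incubator with a long light period, and leaves of several seedlings may be pooled in a library. The protocol describes natural drought and drought simulated with mannitol, and the labels do not say which of them a library had. The source field names seeds while the tissue field and the protocol name leaves, and leaf is used here. The 0 h samples served as control, and later untreated leaves were not analysed here. Hours under drought and the hour of the day therefore cannot be told apart in any course described here. M28 is a single mutant line, and the mutations that it carries are not named in the sources used here. The growth protocol gives each replicate a pot, but no label ties a library to a pot. Except in fits restricted to the groups compared, each p-value is relative to a gene's spread within groups, pooled over all 10 groups. That spread may be partly technical.

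In a leaf, transcript mass is spread very unevenly over genes. The most abundant messages of a green leaf generally come from nuclear genes for the photosynthetic apparatus, such as light-harvesting proteins that bind chlorophyll and the small subunit of Rubisco, the carbon-fixing enzyme. Transcription of many of those genes follows light and the circadian clock, and water deficit is known to lower many of them, in part through the stress hormone abscisic acid. Which of the 130 genes belong to such families is not known here. The deposited table gives IDs without names, and 0 of its 35519 IDs were found in the RefSeq gene table for this species, so genes are given by ID alone and no role is assigned to any of them. For the same reason leaf markers could not be looked up to check the tissue label.

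Libraries were similar in replicate correlation, FPKM totals were lower in M28 than in K326, and 1 library stood apart in its number of genes above 0. These measures do not show read quality or depth. FPKM totals ran from 753424 to 801680 in M28 and from 801492 to 855427 in K326. At each time every M28 total lay below every K326 total, so comparisons of the genotypes depend on the scaling, as given below. Pearson correlations between replicates of log2 values ran from 0.969 to 0.989. M28 8 h replicate 3 had 21609 genes above 0, against 22588 to 23312 in the other libraries. Without it, the median change of the 130 genes at 8 h in M28 was -1.71, against -1.67 with it, their mean share of the FPKM total at 8 h was 3.28%, and 128 of the 130 genes still met the limit of -1.

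The 130 genes together lost most of their share of the leaf's transcripts, and most of that loss came after 4 h. In M28 their share of the FPKM total at 0, 1, 2, 4 and 8 h was 14.6% ± 2.00, 14.3% ± 0.215, 15.9% ± 0.573, 12.4% ± 0.652 and 3.40% ± 0.225 (SD, n = 3 each). In K326 the share over the same times was 18.5% ± 0.880, 18.0% ± 1.80, 17.1% ± 0.402, 13.99% ± 0.615 and 4.41% ± 0.125 (SD, n = 3 each). The 3 libraries of M28 at 8 h held 3.21, 3.36 and 3.65%, and those of K326 at 8 h held 4.53, 4.42 and 4.28%. Every 8 h library thus lay far below every library of the earlier times, and the genotypes did not overlap at 8 h. The limits on the genes require lower means at 8 h than at 0 and 1 h. They set no bound against 2 h and allow a rise of less than 0.8 from 4 to 8 h. At 0 h M28 replicate 1 stood apart with 16.9%, against 13.2 and 13.7% in replicates 2 and 3, and at 1 h K326 replicate 1 stood apart with 15.9%, against 19.2 and 18.8%. The other 848 genes with at least 100 FPKM at 0 h held a somewhat larger share at 8 h, with 42.4% ± 0.524 in M28 at 8 h against 39.5% ± 0.369 at 0 h, and with 47.7% ± 0.116 in K326 at 8 h against 43.8% ± 0.953 at 0 h. The share of these 848 was also lower in M28 without overlap, so that trait is not particular to the 130. Their libraries held 41.9 to 42.9% in M28 against 47.6 to 47.8% in K326 at 8 h. At 0 h they held 39.2 to 39.9% in M28 against 42.9 to 44.8% in K326. These are shares of a library, so an absolute loss of RNA is not measured, and in whole leaves fewer cells of a type and less RNA per cell cannot be told apart.

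**Figure D1:**
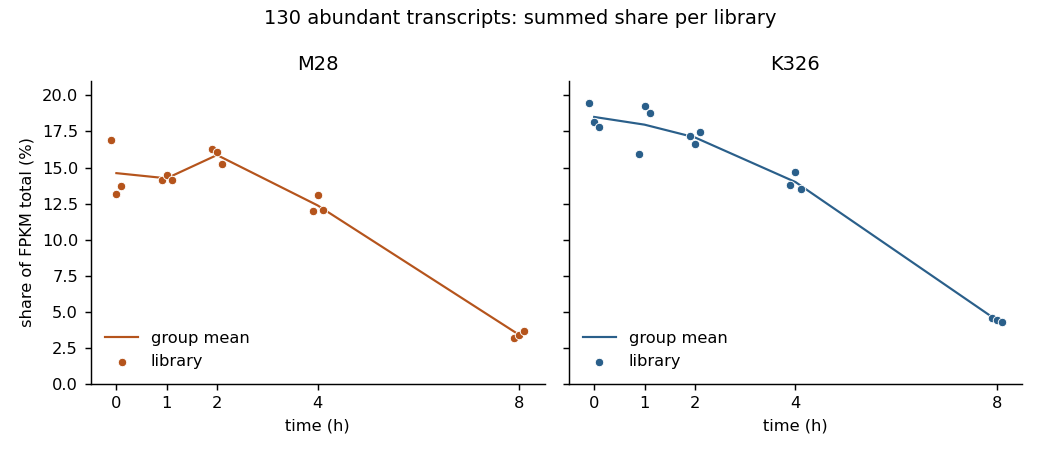
Summed share of the 130 genes in the FPKM total (%, y axis) against time (h, x axis) in M28 (left) and K326 (right); each point is 1 library and the line joins group means. The share stays between 11.96 and 19.5% up to 4 h and is 3.21 to 4.53% at 8 h.

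A few genes carried much of the loss. The 10 genes that lost most made up 40.4% of the summed FPKM lost between 0 and 8 h in M28 and 39.5% in K326. The gene with the highest level at 0 h was Nitab4.5_0000335g0220. Its 8 h libraries had 2893, 2986 and 3306 FPKM in M28 and 4220, 4329 and 4126 FPKM in K326. At 0 h it had 11874, 8497 and 9259 FPKM in M28, and 14945, 13370 and 13268 FPKM in K326. It thus remained among the abundant messages at 8 h in spite of a log2 change of -1.68 in M28 and -1.71 in K326. The next highest, Nitab4.5_0003757g0140, had 1251, 1392 and 1459 FPKM at 8 h in M28, against 5039, 3808 and 4092 FPKM at 0 h. Its K326 libraries had 2146, 2066 and 1974 FPKM at 8 h, against 6568, 6014 and 5927 FPKM at 0 h. In both genes, M28 lay below K326 in all 8 h libraries and also in all 0 h libraries.

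Reduction, rather than complete loss, was the rule at 8 h. The medians of the 130 group means at 8 h were 94.2 FPKM in M28 and 97.9 FPKM in K326, against 351 FPKM in M28 and 402 FPKM in K326 at 0 h. At 8 h 61 genes in M28 and 63 in K326 still averaged 100 FPKM or more, and 4 in M28 and 3 in K326 were under 10 FPKM. The lowest means at 8 h were 3.74 FPKM in M28 and 2.64 FPKM in K326. Averaged over the genotypes, 85 genes changed by -1 to -2 on the log2 scale, 18 by -2 to -3, 20 by -3 to -5 and 7 by more than -5. All 130 genes were called lower at 8 h in both genotypes at an adjusted p below 0.05 in limma, against 18.9% of all genes tested in M28 and 16.7% in K326. The limits themselves use this contrast, so nothing is read from that count. The smallest falls inside the limit were -1.02 and those just outside it were -0.998 and -0.995. On the level limit, the lowest 0 h means inside were 100.3 and 100.6 FPKM and the highest outside were 98.6 and 97.3 FPKM, so the edges of the set are gradual. On the 1 h limit, the lowest changes inside were -0.96 and -0.95, and those just outside were -1.03 and -1.04.

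The deepest falls took very abundant messages down to low levels. Nitab4.5_0000982g0170 had 13.0, 8.82 and 14.5 FPKM at 8 h in M28, against 1667, 973 and 915 FPKM at 0 h. K326 leaves had 25.3, 18.4 and 13.5 FPKM at 8 h, against 2938, 2438 and 2316 FPKM at 0 h. The log2 changes were -6.47 in M28 and -7.04 in K326. Nitab4.5_0000495g0040 had 24.3, 20.5 and 53.6 FPKM at 8 h in M28, against 4663, 2380 and 2469 FPKM at 0 h, and the highest of the 8 h values was that of replicate 3, the library with fewest genes above 0. In K326 it had 47.3, 40.03 and 31.2 FPKM at 8 h, against 4632, 4041 and 3877 FPKM at 0 h. For both genes the 8 h libraries lay far below all libraries of 0 to 4 h. The 7 genes with a mean change beyond -5 had a median 0 h level of 3437 FPKM, averaged over the genotypes, and the 20 with a change of -3 to -5 had a median of 1783 FPKM. For the 85 genes that changed by -1 to -2 the median was 331 FPKM.

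Since the limits kept only genes that fell in both genotypes, likeness of the falls is partly set by the choice. Across the 130 genes, the log2 change at 8 h in M28 and in K326 had a Pearson correlation of 0.969 and a Spearman correlation of 0.873. These fold changes share no library, although the limit of -1 was set on both, and genes are not independent replicates. The changes differed by at most 0.5 between the genotypes for 115 of the 130 genes.

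**Figure D2:**
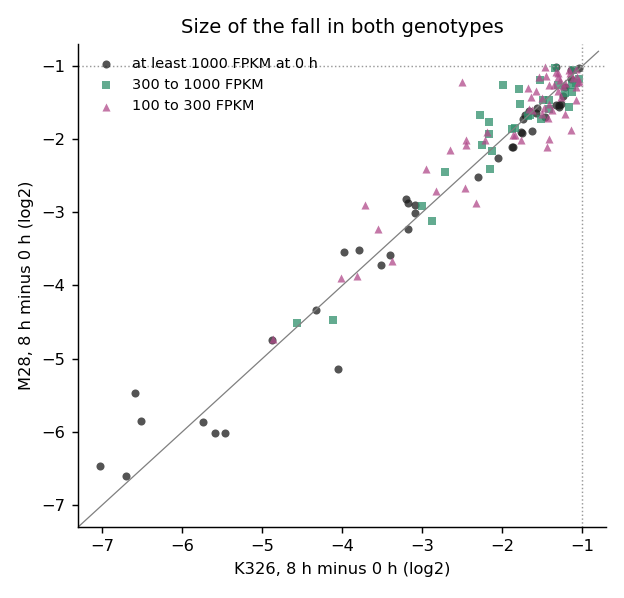
Change from 0 to 8 h on the log2(FPKM + 1) scale in M28 (y axis) against K326 (x axis), 1 point per gene, marked by 0 h level; dotted lines show the limit of -1 and the solid line equal change. The points run along the line from about -1 to beyond -6, and the deepest falls belong to genes with at least 1000 FPKM at 0 h.

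The course before 8 h differed with the starting level. The 42 genes that reached 1000 FPKM at 0 h, averaged over the genotypes, kept most of their level until 4 h. Their median log2 changes in M28 at 1, 2, 4 and 8 h were 0.05, 0.18, -0.06 and -2.18. In K326 they were 0.01, -0.09, -0.25 and -1.97 over the same times. The 56 genes with 100 to 300 FPKM declined by degrees, with medians in M28 of -0.27, -0.31, -0.86 and -1.55 at these times. In K326 the medians of these 56 were -0.26, -0.32, -0.84 and -1.48. At 4 h the most abundant genes had thus gone through a median of 3.17% of their final log2 fall in M28 and 13.2% in K326, against 47.5% in M28 and 48.6% in K326 for the least abundant. The 32 genes with 300 to 1000 FPKM lay between them, at 35.9% in M28 and 40.3% in K326. These values use the 0 h, 1 h, 4 h and 8 h libraries that chose the genes, so they are a description and were not tested.

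**Figure D3:**
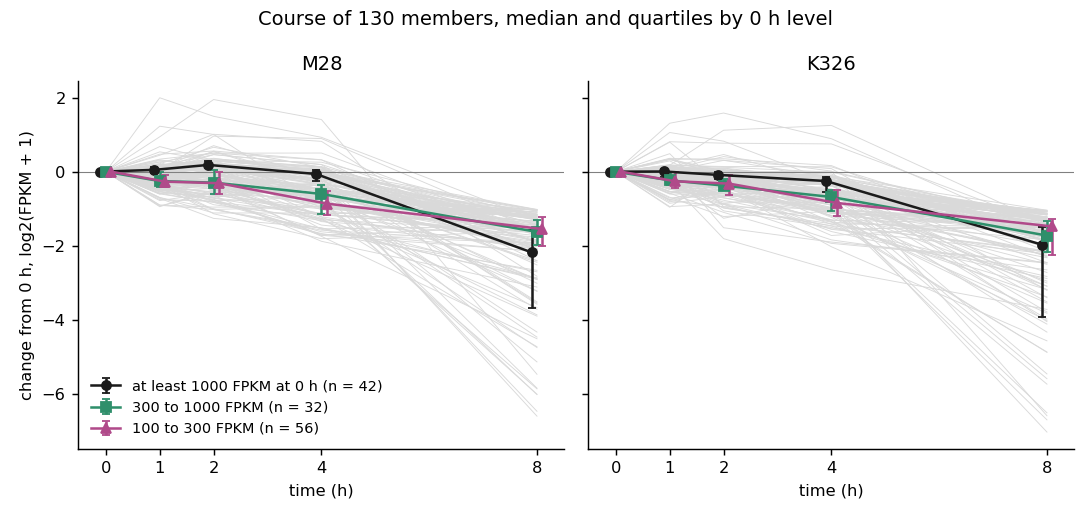
Change from 0 h on the log2(FPKM + 1) scale (y axis) against time (h, x axis) in M28 (left) and K326 (right). Grey lines are the 130 genes, and symbols with bars are the median and quartiles of the genes with at least 1000, 300 to 1000 and 100 to 300 FPKM at 0 h (n = 42, 32 and 56); the first of these stays near 0 until 4 h and has the widest spread at 8 h.

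Over all 130 genes, 38 in M28 and 37 in K326 had gone through at least 50% of their log2 fall by 4 h. A mean at or below 50% of the 0 h level on the log2 scale was reached by 6 genes in each genotype at 2 h. At 4 h it was reached by 30 genes in M28 and 38 in K326, 27 of them in both. Genes above their 0 h mean numbered 43 in M28 and 43 in K326 at 1 h. This number was 61 in M28 and 23 in K326 at 2 h, and 21 in M28 and 8 in K326 when 4 h had passed. The group mean went down at every step in 35 genes of M28 and 49 of K326. From 4 to 8 h, a change upward was seen for 4 genes in M28 and 2 in K326, the largest of 0.34.

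At 4 h, 11 genes were still within 0.2 of their 0 h level in both genotypes. Among these, Nitab4.5_0001448g0030 had the largest loss after 4 h. In M28 it had 313, 305 and 313 FPKM at 8 h, against 1704, 2122 and 1922 FPKM at 4 h. Its K326 libraries had 427, 437 and 456 FPKM at 8 h, against 2107, 2152 and 1999 FPKM at 4 h. The 0 h libraries held 2161, 1610 and 1633 FPKM of it in M28 and 2440, 2100 and 2019 FPKM in K326, which overlap with those at 4 h in both genotypes. Nitab4.5_0000005g0070 had 374, 417 and 421 FPKM at 8 h in M28, against 1971, 1853 and 2094 FPKM at 4 h. In K326 this gene had 346, 327 and 298 FPKM at 8 h, against 1241, 1184 and 1233 FPKM at 4 h. The course nearest to the median of all 130 was that of Nitab4.5_0000123g0170, with a Pearson correlation of 0.993 over the 10 group means. Its log2 changes from 0 h were -0.26, -0.05, -0.72 and -2.90 at 1, 2, 4 and 8 h in M28, and -0.27, -0.38, -1.005 and -3.09 in K326. Nitab4.5_0001270g0120 came next at 0.992. Of the 130 genes, 82 had a correlation of at least 0.9 with the median course, and the lowest was 0.349.

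The step from 2 to 4 h was tested, since the 2 h libraries had no part in choosing the genes. The 4 h libraries entered the choice only through the limit on 8 h minus 4 h, which removed no gene. However, the limits require a lower level at 8 h than at 1 h, so a fall somewhere between these times was built in. Neither all genes tested nor the other 848 abundant genes were chosen for a fall. A larger share called lower among the 130 can thus be partly set by the choice. Many of the genes were lower at 4 h than at 2 h in each genotype. In M28, 65 of the 130 were called lower, against 3.61% of all genes tested, and 1 was called higher, against 5.48%. In K326, 66 were called lower, against 5.94% of all genes tested, and 2 higher, against 6.96%. The median log2 change of the 130 was -0.38 in M28 and -0.39 in K326, against 0.07 and -0.01 over all genes tested. Of the other 848 abundant genes, 10.6% were called lower in M28 and 15.6% in K326, against 50% and 50.8% of the 130. In both genotypes 58 of the 130 were called lower, a count that was not made for other genes. Of the 42 genes with at least 1000 FPKM at 0 h, 15 were called lower in M28 and 13 in K326, and of the 56 with 100 to 300 FPKM, 33 were called lower in M28 and 36 in K326. Genes outside the 130 were not split by level.

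Nitab4.5_0009795g0010 was higher at 1 and 2 h than at the other times, and of the 130 genes it fell by most from 2 to 4 h in M28. Its libraries had 98.6, 80.6 and 87.1 FPKM at 4 h in M28, against 358, 302 and 332 FPKM at 2 h. In K326 they had 254, 227 and 226 FPKM at 4 h, against 492, 521 and 509 FPKM at 2 h. The groups did not overlap, and the log2 change was -1.89 (SE 0.165, adjusted p = 1.06e-08) in M28 and -1.10 (SE 0.165, adjusted p = 3.59e-05) in K326, by limma. At 0 h this gene had 193, 136 and 168 FPKM in M28 and 384, 257 and 237 FPKM in K326, and at 1 h it had 369, 413 and 375 FPKM in M28 and 633, 527 and 637 FPKM in K326, so it stood above its 0 h level before it fell below it. Nitab4.5_0000305g0100 had 274, 225 and 256 FPKM at 4 h in M28, against 713, 595 and 636 FPKM at 2 h (log2 change -1.36, SE 0.142, adjusted p = 2.23e-07). K326 leaves had 166, 115 and 110 FPKM at 4 h, against 425, 401 and 340 FPKM at 2 h (log2 change -1.59, SE 0.142, adjusted p = 1.45e-08). It kept on falling to 44.4, 32.3 and 32.5 FPKM at 8 h in M28 and to 21.1, 19.5 and 23.1 FPKM in K326.

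A single gene was called higher at 4 h than at 2 h in both genotypes. Nitab4.5_0000063g0340 had 168, 215 and 163 FPKM at 4 h in M28, against 144, 142 and 143 FPKM at 2 h. In K326 it had 280, 247 and 241 FPKM at 4 h, against 200, 208 and 184 FPKM at 2 h. The groups did not overlap in either genotype. The log2 change was 0.33 in M28 (SE 0.0864, adjusted p = 0.0138) and 0.37 in K326 (SE 0.0864, adjusted p = 0.00423). In M28 the call was lost without 4 h replicate 2 (log2 change 0.21, adjusted p = 0.132), after median-of-ratios scaling (adjusted p = 0.0528) and in a fit restricted to the M28 libraries of these times (adjusted p = 0.0647).

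The step from 1 to 2 h had fewer calls than that from 2 to 4 h. In the deposited values more of them were lower than higher in both genotypes, although in M28 the majority turned with the processing, as given below. The 1 h libraries had entered the choice through a lower limit on 1 h minus 0 h, which favours genes that were high at 1 h. In M28, 6 of the 130 genes were called higher at 2 h, against 2.35% of all genes tested, and 10 lower, against 1.91%, with a median log2 change of 0.07. In K326, 5 were called higher, against 12.1%, and 27 lower, against 5.97%, with a median of -0.10. For the 42 most abundant genes the median was 0.17 in M28 and -0.09 in K326, with 2 of them called higher and 0 lower in M28, and 0 called in either direction in K326. These counts rest on single libraries. In M28 the higher and lower genes numbered 3 and 5 without 1 h replicate 1, 3 and 4 without 1 h replicate 2, 3 and 5 without 2 h replicate 1, and 2 and 5 without 2 h replicate 2. In K326 the higher genes numbered 2 without 1 h replicate 3, 2 h replicate 1 or 2 h replicate 2. Higher and lower genes in M28 numbered 11 and 8 with quantile normalization, and 13 and 9 in a fit restricted to the M28 libraries of these times. With equal FPKM totals of the genes outside the 130 they numbered 9 and 8, so the direction of the majority in M28 was not settled.

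The genotypes were then compared at the same time, a difference that the limits do not use, although the level at 0 h had to reach 100 FPKM in both. Most called differences were lower in M28, although at 2 and 4 h the majority turned with the scaling between libraries, as given below. Over the mean of the 5 times, 78 of the 130 genes were called lower in M28, against 14% of all genes tested, and 31 higher, against 54.2%. The median log2 difference of the 130 was -0.24, against 0.16 over all genes tested and -0.02 over the other 848 abundant genes. Those 848, which are nearer in level to the 130 than all genes are, had 38.7% called lower and 33.02% higher over all times. At 0 h 67 genes were called lower in M28, against 8.71% of all genes tested, and 19 higher, against 38.3%. Of the other 848 abundant genes, 32.5% were called lower and 26.8% higher at 0 h. At 1 h 67 were called lower, against 7.11%, and 16 higher, against 31.9%. At 2 h the counts were 32 lower, against 7.56%, and 26 higher, against 19.7%. As shares of the 130 these are 24.6% lower and 20% higher, and the other 848 abundant genes had 26.5% lower and 14.7% higher, so at 2 h the share called lower was no larger than among those genes. At 4 h they were 53 lower, against 8.19%, and 19 higher, against 28.4%, and at 8 h 62 lower, against 6.96%, and 21 higher, against 21.5%. The 848 had 25.4, 30.4 and 24.5% called lower and 31.1, 18.9 and 15.4% called higher at 1, 4 and 8 h. The median log2 differences at 0, 1, 2, 4 and 8 h were -0.30, -0.31, -0.13, -0.18 and -0.31 in the deposited values, nearest to 0 at 2 h. With quantile normalization the median nearest to 0 was instead that at 0 h, as given below. The lower genes at 2 h numbered 21 without M28 2 h replicate 3, K326 2 h replicate 1 or K326 2 h replicate 3, the higher genes at 1 h 10 without K326 1 h replicate 2, and the lower genes at 4 h 33 without K326 4 h replicate 2.

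Calls by starting level were as follows, with 38 of the 78 lower genes in the highest class and 40 in the other classes. Of the 42 with at least 1000 FPKM at 0 h, 38 were called lower and 1 higher in M28 over all times, with a median log2 difference of -0.45. Of the 32 with 300 to 1000 FPKM, 20 were called lower and 6 higher, with a median of -0.23. Of the 56 with 100 to 300 FPKM, 20 were called lower and 24 higher, with a median of 0.03. At 8 h 35 of the 42 most abundant genes were called lower in M28, with a median of -0.59. At 2 h 13 of the 42 were called lower, with a median of -0.25. These calls are from the deposited values, and other genes were not split by level. Whether the difference between classes is particular to the genes chosen, or is shared by other genes of these levels, was therefore not tested.

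**Figure D4:**
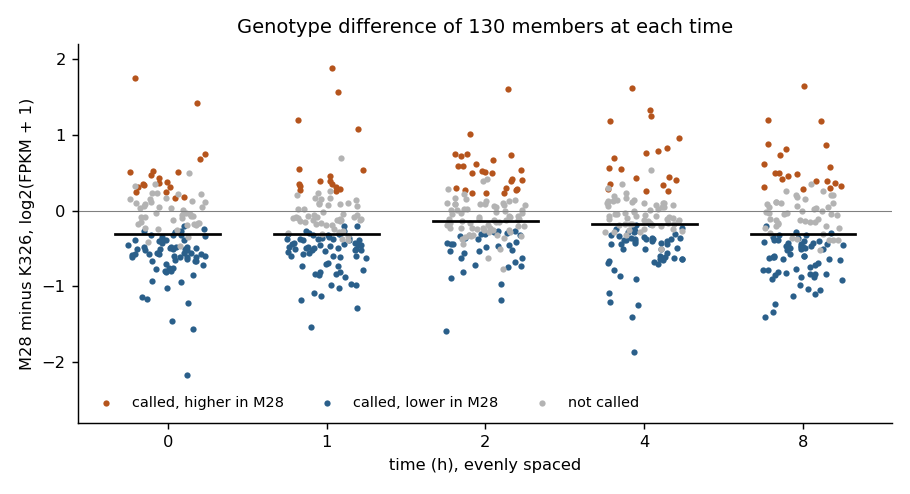
Difference M28 minus K326 on the log2(FPKM + 1) scale (y axis) at each time (x axis, evenly spaced), 1 point per gene, coloured by the limma call at an adjusted p below 0.05; black bars are medians. In the deposited values the medians run from -0.31 to -0.13 and are nearest to 0 at 2 h; quantile normalization moves the median at 2 h to 0.02.

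The split between higher and lower depended on how libraries were scaled. Median-of-ratios scaling, which centres the median gene, moved the median difference of all genes at 0 h to 0.00 and gave 87 lower and 7 higher among the 130 at 0 h and 97 lower and 17 higher over all times. Over all 19599 genes tested it gave 3442 lower and 3087 higher at 0 h, and 5675 lower and 5250 higher over all times. The shares over all genes given above therefore hold for the deposited values only. Quantile normalization, which gives every library the same distribution, gave 34 lower and 23 higher among the 130 at 0 h, with a median of -0.00064, and 62 lower and 37 higher over all times. Over all genes tested it gave 2850 lower and 3490 higher at 0 h, and 5007 lower and 5777 higher over all times. Equal FPKM totals gave 59 lower and 29 higher among the 130 at 0 h and 70 lower and 36 higher over all times. Over all genes tested they gave 1302 lower and 9512 higher at 0 h, and 2025 lower and 12824 higher over all times. At 2 h the calls lower and higher among the 130 numbered 49 and 15 with median-of-ratios scaling, 17 and 31 with quantile normalization and 23 and 30 with equal totals, so the direction of the majority at 2 h was not settled. At 4 h they numbered 72 and 13, 23 and 26, and 35 and 29 in the same order. At 8 h the majority was lower in M28 in each case, with 75 and 11, 62 and 18, and 56 and 27. At 1 h they numbered 91 and 4, 41 and 14, and 54 and 22. Over all genes tested, the lower and higher calls in the same order were 2888 and 2114, 2378 and 2440, and 1108 and 8184 at 1 h. They were 2398 and 2196, 2068 and 2471, and 1116 and 5540 at 2 h, and 2927 and 2355, 2411 and 2812, and 1219 and 7861 at 4 h. At 8 h they were 2673 and 1805, 2089 and 2267, and 1058 and 6114.

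No overlap between the genotypes at any of the 5 times was found for 35 of the genes called lower over all times. The same held for 8 of those called higher. Such counts were not made for other genes, so whether they are unusual was not tested. Among the 8 higher genes without overlap, Nitab4.5_0000200g0190 had the largest difference. It had 92.5, 110 and 66.1 FPKM in M28 at 8 h, against 47.0, 29.0 and 40.6 FPKM in K326. At 0 h it had 336, 316 and 409 FPKM in M28, against 133, 91.0 and 90.5 FPKM in K326. The log2 difference over all times was 1.35 (SE 0.0815, adjusted p = 2.52e-13). At 2 h it had 283, 294 and 288 FPKM in M28, against 149, 128 and 153 FPKM in K326, and none of the tested differences between its courses was called (adjusted p from 0.164 to 0.782). Nitab4.5_0000101g0270 had 85.8, 104 and 81.9 FPKM in M28 at 8 h, against 43.1, 32.0 and 42.5 FPKM in K326. At 0 h it had 230, 256 and 360 FPKM in M28, against 106, 108 and 94.7 FPKM in K326, and the log2 difference over all times was 1.31 (SE 0.0882, adjusted p = 2.06e-12). Both kept this direction and call under every alternative and with each library left out.

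In the other direction, Nitab4.5_0003858g0010 had 13.2, 20.4 and 27.2 FPKM in M28 at 8 h, against 51.6, 41.1 and 36.8 FPKM in K326. At 0 h it had 117, 142 and 140 FPKM in M28, against 277, 296 and 365 FPKM in K326. The log2 difference over all times was -1.26 (SE 0.0909, adjusted p = 8.40e-12). Nitab4.5_0000982g0190 had 6.93, 5.68 and 11.01 FPKM in M28 at 8 h, against 17.8, 19.3 and 13.8 FPKM in K326. At 0 h it had 630, 302 and 292 FPKM in M28, against 2069, 1705 and 1446 FPKM in K326. Its log2 difference over all times was -1.18 (SE 0.108, adjusted p = 6.13e-10). In M28 this gene climbed before it fell, to 759, 762 and 683 FPKM at 1 h and 1593, 1499 and 1348 FPKM at 2 h, while in K326 its values were 1165, 2293 and 2161 FPKM at 1 h and 2211, 2222 and 2427 FPKM at 2 h. The step from 1 to 2 h was called in M28 (log2 change 1.01, SE 0.241, adjusted p = 0.0156). The genotypes were furthest apart at 0 h, with a log2 difference of -2.17 (SE 0.241, adjusted p = 9.17e-08).

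**Figure D5:**
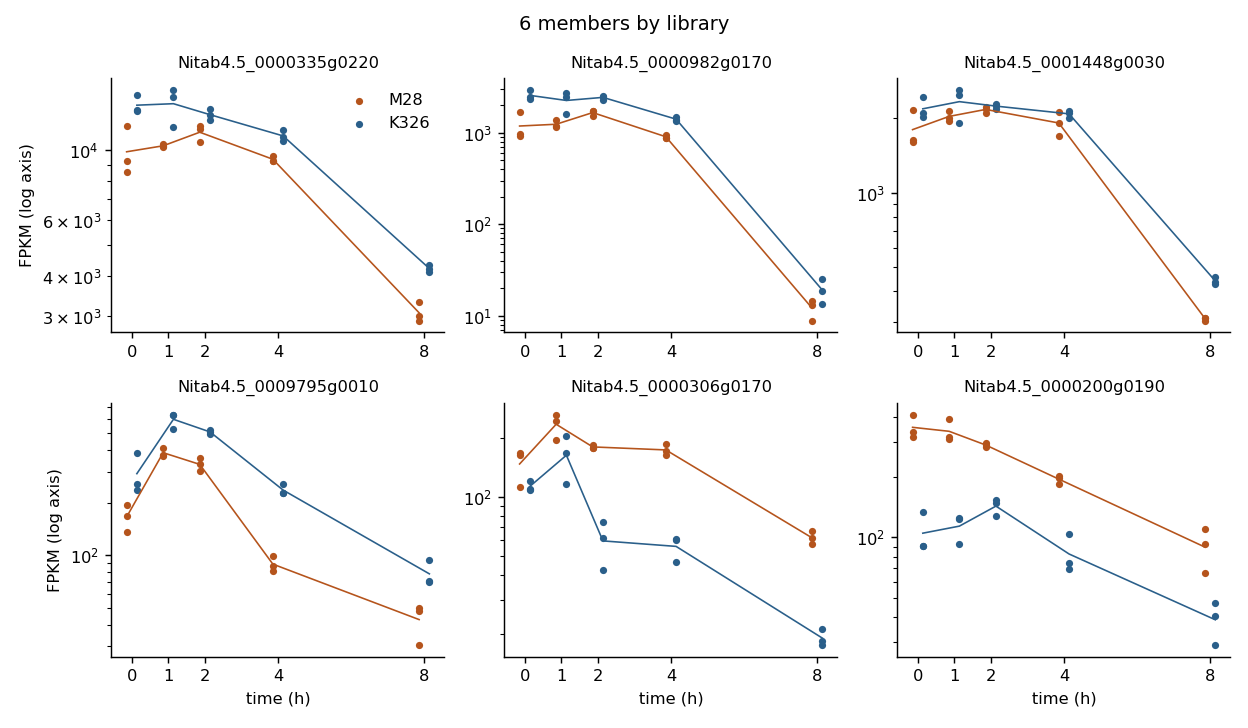
FPKM (log axis) against time (h) for 6 of the genes named in the text; points are libraries (M28 left of K326 at each time) and lines join group means. Nitab4.5_0001448g0030 holds its level until 4 h, Nitab4.5_0009795g0010 is highest at 1 h, and Nitab4.5_0000306g0170 has 176 to 184 FPKM at 2 h in M28 against 42.4 to 74.9 FPKM in K326.

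The size of the fall was compared between genotypes as the difference of 8 h minus 0 h, M28 minus K326. The 0 h and 8 h libraries it uses are those that chose the genes, and genes with a fall of at least 1 in only 1 genotype had been left out, so the counts below are a description of the genes that remained. A smaller fall in M28 was called for 8 genes, against 2.33% of all genes tested, and a larger fall in M28 for 5 genes, against 6.82%, with a median difference of -0.0049. Of the other 848 abundant genes, 9.91% were called with a higher and 10.8% with a lower change in M28, against 6.15 and 3.85% of the 130. For the genes not called, equal falls are not shown. Nitab4.5_0000306g0170 had the largest difference. It had 61.6, 57.3 and 66.7 FPKM at 8 h in M28, against 112, 163 and 166 FPKM at 0 h. Its K326 libraries had 17.6, 18.6 and 21.2 FPKM at 8 h, against 109, 109 and 121 FPKM at 0 h. The fall was smaller in M28 by 1.29 (SE 0.254, adjusted p = 0.00196). M28 was called higher already at 1 h in limma (log2 difference 0.55, SE 0.18, adjusted p = 0.0184), although the libraries overlapped. They had 262, 244 and 196 FPKM in M28 at 1 h, against 204, 116 and 168 FPKM in K326. At 2 h the libraries had 178, 184 and 176 FPKM in M28 against 61.8, 74.9 and 42.4 FPKM in K326. Nitab4.5_0000982g0190, described above, also had a smaller fall in M28, by 1.12 (SE 0.341, adjusted p = 0.0382), and the call was lost in 5 alternatives and without each of 7 libraries, among them M28 8 h replicate 3 (0.88, adjusted p = 0.114).

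Nitab4.5_0000441g0070 fell further in M28. It had 107, 103 and 172 FPKM at 8 h in M28, against 5114, 3923 and 4229 FPKM at 0 h. K326 leaves had 341, 307 and 299 FPKM at 8 h, against 5585, 5120 and 5027 FPKM at 0 h. The difference of the changes was -1.09 (SE 0.192, adjusted p = 0.000745). The genotypes overlapped at 0 h and did not at 8 h, when M28 minus K326 was -1.34 (SE 0.136, adjusted p = 7.2e-08). Nitab4.5_0001199g0090 had 55.6, 58.7 and 34.5 FPKM at 8 h in M28, against 191, 165 and 184 FPKM at 0 h. In K326 it had 68.2, 56.9 and 54.6 FPKM at 8 h, against 126, 144 and 129 FPKM at 0 h. The difference was -0.73 (SE 0.212, adjusted p = 0.0301), and the call was lost under 2 alternatives and without each of 6 libraries, among them M28 8 h replicate 3 (adjusted p = 0.0909). The counts themselves rest on single libraries. Without M28 0 h replicate 1 there were 14 genes with a smaller and 3 with a larger fall in M28, and the number with a larger fall was 1 without M28 0 h replicate 3, 3, 3 and 2 without K326 0 h replicates 1, 2 and 3, and 2 without K326 8 h replicate 1. Quantile normalization gave 6 genes with a smaller and 30 with a larger fall in M28, and scaling by median of ratios gave 9 and 1.

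The same kind of test on the step from 2 to 4 h called 0 of the 130 genes in limma in either direction, against 0.0204% of all genes tested with a higher and 0.138% with a lower change in M28. At an unadjusted p below 0.05 there were 11 genes, or 8.46%, against 10.2% of all genes tested. On the step from 1 to 2 h, a comparison that was chosen after the values had been seen, 7 genes were called, 6 with a higher change in M28, against 0.27% of all genes tested, and 1 with a lower change, against 0.587%. The median difference was 0.19, against -0.09 over all genes tested. The count higher was 0 in a fit restricted to the 1 h and 2 h libraries, and 0 without M28 1 h replicate 3. It was 1 without M28 2 h replicate 2 or K326 2 h replicate 3, and 3 without M28 2 h replicate 1, M28 2 h replicate 3 or K326 2 h replicate 1.

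Some of the genes share the first number of their ID, and nothing in the sources used here says what that number stands for. Of the 130 genes 20 share it with another, on 9 such numbers, and 2 of these hold 3 genes each. Nitab4.5_0000982g0170 and Nitab4.5_0000982g0190 belong to one of these sets, with Nitab4.5_0000982g0200, which was picked after its values were seen. The third gene changed by -5.85 in M28 and -6.52 in K326 at 8 h, so that all 3 genes of the set are among the 7 with the deepest falls. In the other set of 3, the changes were -3.72, -4.47 and -4.33 in M28 and -3.52, -4.12 and -4.33 in K326, and the correlations of neighbouring courses over the 10 group means were 0.995 and 0.997. These are the highest of the 11 neighbouring pairs that share a first number, and the lowest was 0.749. Sharing of first numbers was not counted for other genes, so whether it is unusual was not tested. Whether genes of such a set are near-identical copies whose reads the authors' counting could split was not tested, so values of single genes in them are uncertain.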

How the data were processed

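RNA sequencing of 30 tobacco leaf libraries was used, 3 for each of 2 genotypes at 5 times. The values are FPKM as deposited by the authors in a single table of 35519 gene IDs. Tools named in the submitters' processing notes are HISAT2, featureCounts, Trimmomatic and FastQC. Versions, genome build, strand setting and the FPKM step are not given in the sources used here. Read counts and depth are unknown, so no counting interval is given. FPKM is relative to each library, so a large change in abundant genes can shift all others.

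From these values log2(FPKM + 1) was computed. The 19599 genes that averaged 1 FPKM or more over all libraries were fitted in limma 3.58.1 (R 4.3.3) with 10 groups, all 30 libraries, a mean-variance trend and no replicate block. P-values were two-sided and Benjamini-Hochberg adjusted over all genes within each of 13 comparisons, and a call is an adjusted p below 0.05. The fit was tested on simulated data. A fold change on this scale understates changes of low genes.

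The 130 genes, the level classes and the tests were chosen with earlier results of these data known. IDs named are, for each comparison, at most 2 in each direction, by largest change among genes called (without overlap at any time for the genotypes, called in both genotypes for 4 h minus 2 h), the 2 highest at 0 h, the 2 with the deepest fall, the 2 with the largest loss after 4 h among those within 0.2 of their 0 h level, and the 2 nearest to the median course. Alternatives were pseudocounts of 0.1 and 5, no filter, 4 scalings, fits of the groups compared only, no trend, a replicate block and leaving out each library. No sequence is printed, since no ID could be matched to a sequence.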

Additional observations from a re-analysis of the deposited data

Results flagged for a closer look

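The change from 0 to 8 h differed between M28 and K326 for 13 of the 130 genes by the test of the difference itself in limma. That is 10% of the 130, against 9.14% of all genes tested and 20.8% of the other 848 abundant genes. The 0 h and 8 h values that the test uses also chose the 130 genes, which had to fall in both genotypes. The count of 13 therefore describes the genes that remained after that choice. Among them, Nitab4.5_0000306g0170 (difference 1.29 on the log2 scale, adjusted p = 0.00196) kept its call under all alternatives and with each library left out, with adjusted p from 0.000837 to 0.00646. Nitab4.5_0000441g0070 (-1.09, adjusted p = 0.000745) also kept it, with adjusted p up to 0.0137. Nitab4.5_0000982g0190 (1.12, adjusted p = 0.0382; 0.00225 to 0.197 over its alternatives) and Nitab4.5_0001199g0090 (-0.73, adjusted p = 0.0301) did not keep it throughout. The change from 1 to 2 h differed between M28 and K326 for 7 genes by the same kind of test, which was chosen after the values had been seen. Those 7 are 5.38% of the 130, against 0.857% of all genes tested and 3.54% of the other 848 abundant genes. The count did not hold throughout: it was 0 in a fit restricted to the 1 h and 2 h libraries and 0 without M28 1 h replicate 3.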

How the results depend on the processing

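The tested differences of the 10 genes named for them (genotype over all times, 4 h minus 2 h, and the genotype difference of 8 h minus 0 h) kept their sign under the alternatives run; genes named by level, fall, late loss or likeness were not rerun. Median-of-ratios scaling gave, for M28 against K326, 7 higher genes at 0 h, 4 at 1 h, 15 higher and 49 lower at 2 h, 11 higher at 8 h and 17 higher over all times. It gave 3 higher from 1 to 2 h in K326, 0 higher from 2 to 4 h in M28, 1 with a larger fall in M28 by 8 h, and 10 higher and 0 lower in the difference of 2 h minus 1 h. Quantile normalization gave 34, 41, 17 and 23 lower genes in M28 at 0, 1, 2 and 4 h, 11 higher from 1 to 2 h in M28, 1 higher in the difference of 4 h minus 2 h, and 30 with a larger fall in M28 by 8 h. Equal totals gave 29 higher at 0 h, and 29 higher and 35 lower at 4 h. Fitting only the groups compared gave 9 higher and 36 lower at 1 h, 54 lower at 2 h, 13 higher from 1 to 2 h in M28, 3 higher and 15 lower from 1 to 2 h in K326, 0 higher from 2 to 4 h in M28, 1 lower in the difference of 4 h minus 2 h, 3 with a larger fall in M28, and 0 higher and 0 lower in the difference of 2 h minus 1 h. The single lower gene in that last difference was also lost (0 lower) with a pseudocount of 0.1, no filter, quantile normalization, equal totals, equal totals of the other genes and no trend. The rule gave 82 genes with a limit of 200 FPKM at 0 h and 69 with a limit of -1.5 at 8 h. For M28 against K326 the counts over all genes tested moved with the scaling as well, as given above. The cause of these moves was not tested.

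Leaving out 1 library at a time gave, for M28 against K326, 13 to 21 higher and 56 to 70 lower genes at 0 h, 10 to 16 and 48 to 71 at 1 h, 20 to 22 and 21 to 25 at 2 h, 15 to 17 and 33 to 49 at 4 h, 19 to 25 and 50 to 63 at 8 h, and 31 to 32 and 77 to 82 over all times. From 1 to 2 h it gave 2 to 6 higher and 4 to 8 lower in M28 and 2 to 7 and 21 to 28 in K326. From 2 to 4 h it gave 0 to 1 and 51 to 61 in M28 and 2 to 2 and 54 to 60 in K326. The difference of 8 h minus 0 h gave 6 to 14 and 1 to 6, and that of 2 h minus 1 h gave 0 to 9 and 0 to 1. The rule gave 123 to 134 genes.

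With the replicate number as a block, the calls at 0 h were 19 upward and 66 downward, and no count moved by more than 1.5 times. Deviations of same-numbered libraries had a median correlation of 0.02 over 135 pairs, against -0.01 for different numbers. They ran from -0.30 to 0.21, with 17 pairs over 0.1, and 12 of 30 libraries correlated best with their own number. Whether some same-numbered libraries are paired was not tested.

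Depth per library is unknown, so the precision of low values cannot be stated. Absolute RNA amount, cell composition and time of day were not measured, and gene copies were not looked up.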
